A study of Mus musculus with 60 samples.

Results

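The 37 genes described here are autism risk genes other than Tbr1 that act on chromatin, transcription, signalling or synaptic structure. They were chosen by name, by matching a list of symbols to the Ensembl identifiers of the expression table; the rule uses no measured value, but the list was drawn up with earlier results of these data known. All 37 of 37 listed genes had a row among the 18088 rows of the table, and all 37 were among the 17781 genes that passed the filter on low values, which asked for 10 or more normalised reads in at least 5 libraries. Chromatin writers and remodelers made up 13 of them (Chd8, Chd2, Chd3, Arid1b, Adnp, Kmt2a, Kmt2c, Kmt5b, Asxl3, Ash1l, Setd5, Nsd1 and Ehmt1). Transcription factors and co-regulators made up 10 (Pogz, Foxp1, Tcf4, Bcl11a, Myt1l, Auts2, Tbl1xr1, Phf21a, Med13 and Med13l). A set of 7 regulators of kinase, ubiquitin, mTOR, RAS and RNA silencing pathways held Dyrk1a, Cul3, Trip12, Tsc1, Tsc2, Nf1 and Tnrc6b. The remaining 7 were the synaptic scaffold genes Shank1, Shank2 and Shank3, the ankyrin genes Ank2 and Ank3, and Cntnap2 and Dip2a, whose products sit at or near the neuronal membrane.

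RNA-seq was made from the prefrontal cortex of C57BL/6J mice at postnatal day 25. Mice were wild type (WT) or carried 1 K228E allele of Tbr1 (HT), the gene of a T-box transcription factor made in projection neurons of the deep cortical layers. Pups received vehicle, the serotonin reuptake inhibitor fluoxetine, or lithium through the milk of their mothers from day 3 to day 24, per the labels. The 2 genotypes, 3 treatments and 2 sexes made 12 groups of 5 libraries, 60 in all. The 4 vehicle groups are the controls of the drugs, and the 6 WT groups are those of the allele. The labels name no litter or dam, so the p-values below measure only the spread between these samples.

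Proteins of the first 2 classes open, close or mark chromatin and set which genes a developing neuron transcribes. Proteins of the SHANK, ankyrin and contactin-associated families anchor receptors, channels and adhesion molecules in the neuronal membrane. TBR1 has been reported to bind at several autism risk genes in embryonic cortex.

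Libraries held 23930164 to 36515331 reads (median 28721151), and pairs of libraries of a group correlated at 0.953 to 0.991 over genes. Tbr1 itself was higher in HT than in WT mice by 0.55 ± 0.11 (SE) on the log2 scale averaged over treatments (limma adjusted p = 0.00518) and by 0.82 ± 0.19 with vehicle (SE, limma adjusted p = 0.0629), and these values cannot tell its 2 alleles apart. With vehicle, the mean log2 level of cortical excitatory neuron markers was 11.497 in HT against 11.274 in WT females. It was 11.735 against 11.178 in males, with overlapping ranges in both sexes. The part of tissue content in the Tbr1 values was not tested. Markers of the olfactory bulb were read in every library, although the label is prefrontal cortex: the mean log2 level of 7 markers (Tbx21, Eomes, Cdhr1, Doc2g, Shisa3, Trh and Th) ran from 9.13 to 10.89 in WT vehicle females and from 4.07 to 7.37 in WT fluoxetine females. The 10 vehicle males stood apart on the second principal component (9.46% of variance), at 17.8 to 47.9 against -32.0 to 12.5 in the other 50 libraries. Among the 37 genes, Tcf4 and Cul3 were higher and Tsc2 was lower in all 10 vehicle males than in any other library, which is 3 of 37 genes where 7.28% of all genes did not overlap. The labels name no batch for these 10 libraries, and the drug effects below were read in females.

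Every one of the 37 genes was expressed in every library, and their levels per kilobase of exon spanned a wide range. Chd3, the ATPase of the NuRD remodeling complex, was the highest at 3012.5 ± 190 normalised reads per kb (SD over 60 libraries). The Shank genes, which encode master scaffolds of the postsynaptic density, came next, with Shank1 at 1812 ± 367, Shank3 at 888 ± 174 and Shank2 at 784 ± 128 reads per kb. Cul3, the scaffold of a ubiquitin ligase, stood at 750 ± 84.1 and Ank2, a membrane adaptor, at 733 ± 87.4 reads per kb, a difference within their spread. At the low end were Auts2, an activator linked to a Polycomb complex, at 93.4 ± 14.97, and Asxl3, a partner of a histone deubiquitinase, at 38.5 ± 5.47 (SD) reads per kb. The genes also differed in how steady they were across the 12 groups. Dyrk1a, a dosage-sensitive kinase, was the steadiest, with a ratio of 1.08 between its highest and lowest group mean, followed by Tnrc6b at 1.10, Setd5 at 1.11 and Chd8 at 1.12. The widest ratios belonged to Shank3 at 1.75, Shank1 at 1.71, Foxp1 at 1.61, Bcl11a at 1.53 and Auts2 at 1.51, with Shank2 just below. For 5 of these 6 genes (Shank3, Shank1, Shank2, Bcl11a and Auts2) an extreme group mean, lowest for the Shank genes and highest for the other two, was that of WT vehicle males.

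**Figure D1:**
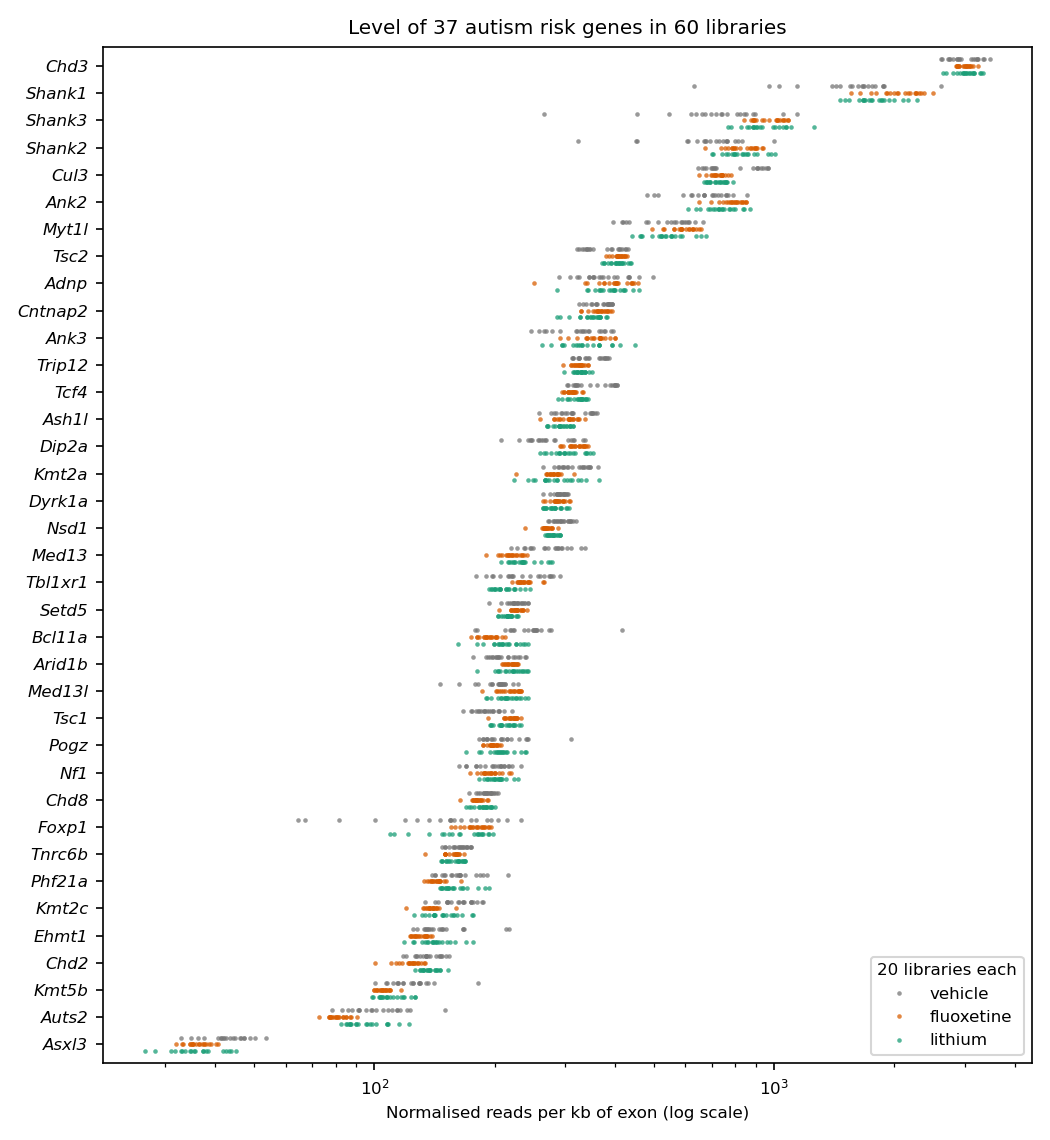
Each point is 1 library, placed by its normalised reads per kilobase of exon on a log axis, with the 37 genes ordered by mean level and colours for the 20 vehicle, 20 fluoxetine and 20 lithium libraries. Chd3 lies highest near 3012.5 reads per kb and Asxl3 lowest near 38.5, and Shank1, Shank3, Shank2, Foxp1 and Bcl11a show vehicle libraries far from the rest.

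Because TBR1 is a T-box factor, the promoters of these genes were searched for T-box letters. RefSeq start sites (build GRCm38.p6) matched 27 of the 37 genes with 42 promoters, each from 250 bases before to 50 after the start. The T-box site AGGTGTGA, searched on both strands, was in 0 of the 42 promoters and in 1.275% of all 32851 promoters of the same length. The shorter core GGTGTGA, which is contained in that site, was in 3 promoters, or 7.14%, against 3.98% of all. These 3 are shown with 9 bases on each side and the core in capitals, as the letters closest to a T-box sequence in the set: Ank2 at chr3:127499226-127499250 on the minus strand, Bcl11a at chr11:24080707-24080731 on the plus strand and Dyrk1a at chr16:94569978-94570002 on the plus strand.
Ank2: cgtgtagcgGGTGTGAgagtgaatg
Bcl11a: gcgcgcgacGGTGTGAagttacagc
Dyrk1a: ggcgggaccGGTGTGAgtgtgaggg
The core starts 126 bases before the start site in Ank2 and 219 before it in Dyrk1a, and at base 21 after it in Bcl11a. A match is a description of letters and not a bound site. The E-box CAGCTG was in 8 promoters (19.0%) against 16.3% of all.

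A GC box, the element GGGCGG bound by SP1-type factors, searched on both strands, was in 25 of the 42 promoters (59.5%), from 22 genes, against 35.7% of all promoters. The upstream parts of Shank3, a gene that was higher under fluoxetine below, and Ehmt1, a histone methyltransferase gene that was lower, are printed to show the boxes in capitals on either strand. The Shank3 stretch is chr15:89499358-89499607 on the plus strand and the Ehmt1 stretch is chr2:24919615-24919859 on the minus strand (GRCm38.p6), ending 1 and 6 bases before the start site.
Shank3: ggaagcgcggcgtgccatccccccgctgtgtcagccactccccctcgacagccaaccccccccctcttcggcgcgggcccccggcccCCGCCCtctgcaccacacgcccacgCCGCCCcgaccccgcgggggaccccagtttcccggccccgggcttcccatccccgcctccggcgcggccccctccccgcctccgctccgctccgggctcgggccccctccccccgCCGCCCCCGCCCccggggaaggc
Ehmt1: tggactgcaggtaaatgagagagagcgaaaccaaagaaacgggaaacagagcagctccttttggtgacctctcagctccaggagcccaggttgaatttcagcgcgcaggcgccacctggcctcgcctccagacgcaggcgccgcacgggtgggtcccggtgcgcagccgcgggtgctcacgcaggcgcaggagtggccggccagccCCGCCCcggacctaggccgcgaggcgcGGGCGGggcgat
Shank3 held 4 GC boxes in its 250 bases and Ehmt1 held 2 in its 245. The box was in promoters of 22 of the 27 genes searched, and a link between it and the fluoxetine values was not tested.

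The first question of the design is whether the K228E allele changes these genes in mice without a drug. With vehicle, none of the 37 genes passed the test between HT and WT mice (limma, adjusted p below 0.05 over 17781 genes, sexes averaged), where 0.0337% of all genes did, 0.00562% higher and 0.0281% lower. An unadjusted p below 0.05 was reached by 11 of the 37 and by 5912 of the 17781 genes, edgeR called 0, and DESeq2 called 5 where it called 14.1% of all genes. The members' median difference was -0.01 against 0.00 for all genes, and 18 of 37 were above 0. The smallest adjusted p belonged to Auts2, Bcl11a, a zinc-finger factor of projection neurons, and Shank3.

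Auts2 had 2081, 2182, 2472, 2648 and 2768 normalised reads in WT vehicle females and 1795, 1904, 2014, 2090 and 2809 in HT vehicle females. In males it had 2316, 2405, 2534, 2605 and 3431 in WT and 1962, 2090, 2249, 2257 and 2602 in HT. The HT groups lay lower but overlapped with WT in both sexes, and 1 HT female was above all WT females. The difference was -0.22 ± 0.07 on the log2 scale (SE, limma adjusted p = 0.0782).

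Bcl11a stood at 2903 to 3348 in WT vehicle females (median 3113) and at 2357 to 3605 in HT vehicle females (median 2791). It stood at 3288 to 5480 in WT males (median 3360) and 2940 to 3448 in HT males (median 3289), again with overlap in both sexes, and the difference was -0.19 ± 0.07 (SE, limma adjusted p = 0.0788). Shank3 had 5023, 6379, 6580, 7739 and 8159 reads in WT females and 4181, 7806, 8226, 9702 and 10478 in HT females. In males it had 2441, 5683, 5870, 6169 and 6772 in WT and 6069, 6823, 7011, 7428 and 7544 in HT. Most HT libraries were above the WT medians, with 1 HT female below every WT female, and the difference was 0.33 ± 0.12 (SE, limma adjusted p = 0.0795). In bulk tissue, fewer cells of a type and less RNA per cell cannot be told apart, for these genes and all that follow.

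The largest difference among the 37 was that of Foxp1, a forkhead factor of cortical and striatal neurons, at 0.38 ± 0.14 (SE, limma adjusted p = 0.0822), and 34 of 37 intervals of 95% lay within 0.5 of 0. Within each sex 0 members passed in limma, and the smallest limma adjusted p of a member was 0.613 in females and 0.181 in males. The sexes were not compared with each other in a test. Auts2 differed by -0.21 in females and -0.24 in males, Shank3 by 0.21 and 0.45, and Foxp1 by 0.19 and 0.57. Library quality weights called 20 of the 37 (7 higher, 13 lower) where they called 39.3% of all genes. The count also turned on single libraries: 14 members were called without HT vehicle female 1 (7 higher and 7 lower, where 35.3% of all genes passed), 9 without WT vehicle female 4 (17.6% of all genes), 9 without WT vehicle male 1 (20.8%) and 6 without HT vehicle male 2 (17.1%), and 0 without any of the other 16. Auts2, Bcl11a and Shank3 each passed in those 4 fits, with limma adjusted p of 0.0035 to 0.0437. Marker levels of neighbouring tissue moved with genotype here. The mean log2 level of olfactory bulb markers was 8.53 in HT against 10.15 in WT vehicle females and 8.50 against 9.87 in males, and the 7 markers differed by -1.73 to -1.30, with none past the threshold (limma adjusted p of 0.0814 to 0.146). HT vehicle female 1 had a bulb marker mean of 10.948 where the other 4 libraries of its group had 5.13 to 9.28, and it had the lowest Foxp1 (922) and Shank3 (4181) of its group. Striatum markers had mean log2 levels of 10.457 and 10.329 in HT vehicle males 4 and 5 against at most 8.70 in WT vehicle males, and these 2 libraries had the highest Foxp1 values of all vehicle mice (2961 and 3211). With 2 bulb marker covariates 0 members passed, and Foxp1 differed by 0.17, Shank3 by 0.16, Auts2 by -0.14 and Bcl11a by -0.10 (limma adjusted p of 0.626 to 0.645). With striatum and choroid plexus covariates 0 members passed, and Foxp1 differed by 0.24 (limma adjusted p = 0.312).

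**Figure D2:**
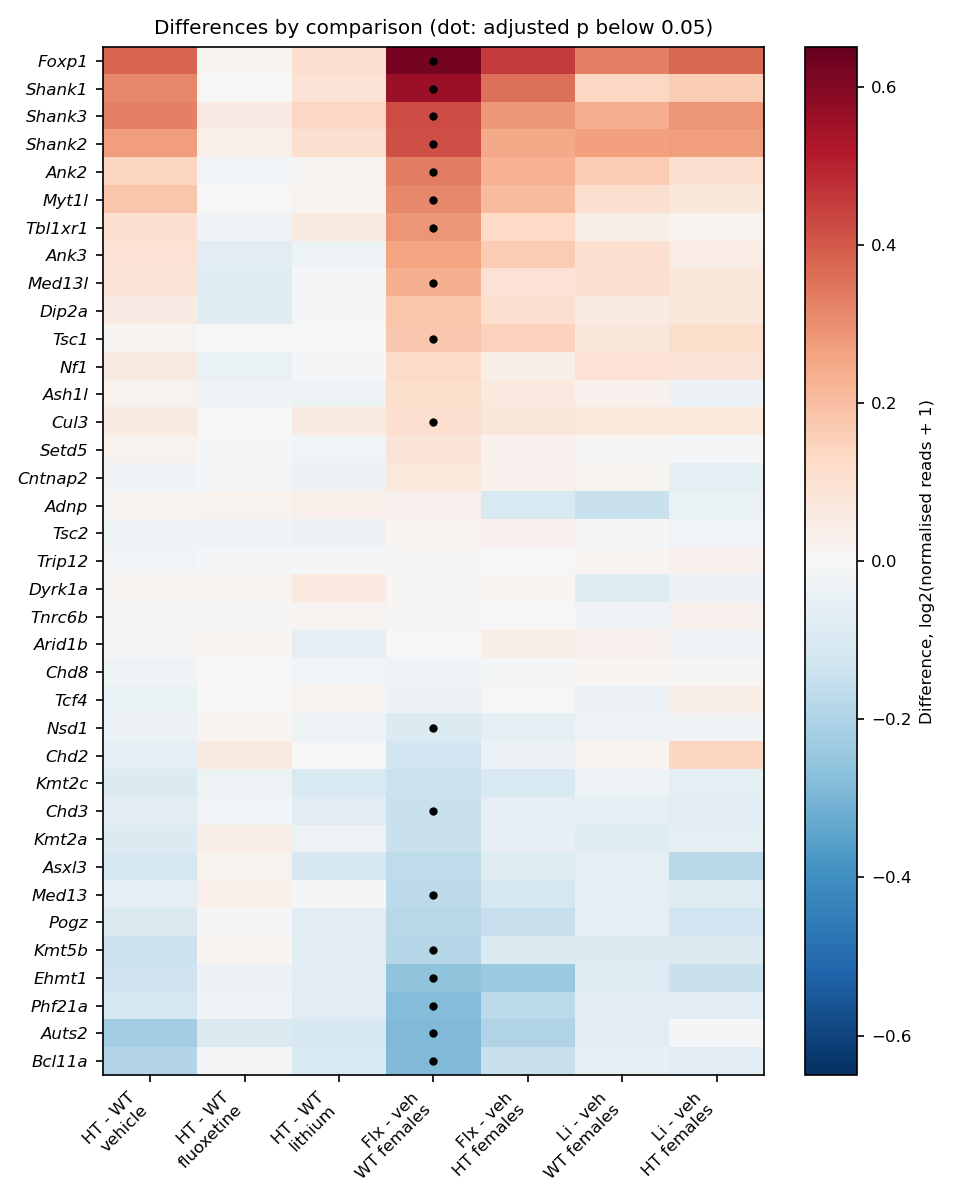
Columns are the 3 comparisons of HT with WT mice (both sexes) and the 4 comparisons of a drug with vehicle in females, rows are the 37 genes ordered by the fluoxetine difference in WT females, colour is the difference on the log2(normalised reads + 1) scale, and a dot marks a limma adjusted p below 0.05. All 18 dots, 10 higher and 8 lower, are in the column of fluoxetine in WT females, and the other 6 columns hold none.

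Under fluoxetine no difference between the 2 genotypes was detected for the 37 genes. None passed the test (limma adjusted p = 1 for each), none had an unadjusted p below 0.05, edgeR and DESeq2 called 0, and 0.0112% of all genes passed in limma and 0.045% in DESeq2. The intervals bound the differences tightly: 31 of 37 lay within 0.2 of 0 on the log2 scale and all 37 within 0.5, with the widest for Foxp1, from -0.27 to 0.30. Chd2, Med13l and Dip2a had the smallest p. Chd2, a chromatin remodeler, had 1622 to 1911 reads in WT females and 1748 to 1816 in HT females, and 1432 to 1842 in WT males and 1736 to 1870 in HT males. Its groups overlapped in both sexes, and the difference was 0.06 ± 0.04 (SE). Med13l, a subunit of the Mediator kinase module, had 3524, 3550, 3553, 3570 and 3590 reads in WT females and 3199, 3268, 3375, 3454 and 3464 in HT females. These female groups did not overlap, but the share of all genes without overlap was not counted for comparisons of genotype. In males it had 2876, 3386, 3423, 3531 and 3601 in WT and 3118, 3122, 3172, 3232 and 3343 in HT, which overlapped, and the difference over both sexes was -0.08 ± 0.05 (SE). Dip2a, a gene of acetyl-CoA synthesis, had 2551 to 2814 reads over the 10 WT libraries and 2393 to 2712 over the 10 HT libraries, with a difference of -0.08 ± 0.05 (SE).

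Under lithium, again none of the 37 genes passed the test between HT and WT mice, where 0.00562% of all genes did. Unadjusted p below 0.05 was reached by 3 (Dyrk1a, Chd3 and Kmt2c) and by 1489 genes, and edgeR and DESeq2 called 0. Dyrk1a had 2182 to 2338 reads in WT females, 2177 to 2490 in HT females, 2212 to 2403 in WT males and 2294 to 2540 in HT males. These ranges overlapped in both sexes, with a difference of 0.06 ± 0.03 (SE, limma adjusted p = 0.557). Chd3 had 25398 to 27897 in WT females, 22410 to 28089 in HT females, 24298 to 26716 in WT males and 22705 to 26079 in HT males, and differed by -0.07 ± 0.03 (SE, limma adjusted p = 0.572). Kmt2c, a histone H3 methyltransferase, had 2713 to 3577 in WT females, 2665 to 3198 in HT females, 2866 to 3210 in WT males and 2553 to 3364 in HT males, and differed by -0.10 ± 0.05 (SE, limma adjusted p = 0.572). Intervals of 29 of the 37 genes lay within 0.2 of 0 and all 37 within 0.5.

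Averaged over the 3 treatments, where 1.21% of all genes passed (0.692% higher and 0.517% lower), 0 of the 37 passed, 12 had an unadjusted p below 0.05, as had 4230 of all genes, and edgeR called 0. Library quality weights called 12 of the 37 where they called 24.1% of all genes. Within each sex 0 passed as well. Auts2 came closest, at -0.14 ± 0.04 (SE, limma adjusted p = 0.051). DESeq2 called Auts2 alone of the 37 (-0.14, adjusted p = 0.0267), where it called 3.91% of all genes. Auts2 passed in limma when any 1 of 15 libraries was left out, with adjusted p from 0.00677 to 0.0477 in those 15 fits. These libraries were HT lithium females 1 and 2, HT lithium male 1, HT vehicle female 1, HT vehicle male 2, WT fluoxetine male 2, WT lithium females 2, 4 and 5, WT lithium male 1, WT vehicle females 4 and 5, and WT vehicle males 1, 2 and 5. Without HT vehicle female 1 the count of members was 11 (16.1% of all genes), without WT lithium female 5 it was 2 (3.73%), and without each of the other 13 it was 1 (1.18% to 4.76%). Kmt2c (-0.07 ± 0.03, limma adjusted p = 0.107) and Chd3 (-0.05 ± 0.02, limma adjusted p = 0.118) had the next smallest p, and the Shank genes stood at 0.13 to 0.17 above WT with adjusted p of 0.138 to 0.232 in limma. With bulb marker covariates 0.129% of all genes passed. Bulb marker means were lower in HT than in WT mice with vehicle. With lithium they were 7.35 in HT against 8.66 in WT females and 8.08 against 8.995 in males. With fluoxetine they were higher in HT mice, at 5.34 against 5.16 in females and 6.75 against 6.10 in males. Auts2 rose with these markers within groups, and the part of bulb content in its averaged difference was not tested beyond the covariate fit.

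The comparison with the most calls was that of fluoxetine with vehicle in WT females, where the Shank genes, Ank2 and Foxp1 were higher and Bcl11a, Auts2, Phf21a and Ehmt1 were lower. Compared with WT vehicle females, 18 of the 37 genes passed the test, 48.6% of the set, where 39.8% of all genes passed. They were 10 higher (20.9% of all genes) and 8 lower (19.0% of all genes), and the members' median of 0.01 stood beside 0.01 for all genes. Chromatin genes had 0 higher and 4 lower of 13 (median -0.12), transcription genes 4 higher and 4 lower of 10, signalling genes 2 higher and 0 lower of 7, and synaptic and ankyrin genes 4 higher and 0 lower of 7 (median 0.33). Quantile normalization, which forces libraries to 1 distribution, also called 18, where it called 39.1% of all genes (20.7% higher and 18.3% lower), but split the members as 3 higher and 15 lower, with 0 and 8 of the chromatin genes, 2 and 6 of the transcription genes, 1 and 1 of the signalling genes and 0 and 0 of the synaptic genes. The higher side of the set therefore depends on the scaling for all but Foxp1, Tbl1xr1 and Tsc1, while edgeR called 9 higher and 10 lower (40.7% of all genes) and DESeq2 10 and 8 (41.8%). Library quality weights called 25 of the 37 where they called 53.2% of all genes.

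Among synaptic genes, Shank1 (ENSMUSG00000038738, chr7:44310253-44360572, GRCm38) had 10238, 14708, 17490, 18099 and 19749 reads in WT vehicle females and 20940, 21524, 23834, 24293 and 24585 in WT fluoxetine females. All 5 fluoxetine libraries were above all 5 vehicle libraries, a difference of 0.55 ± 0.17 (SE, limma adjusted p = 0.0105). Shank3 (ENSMUSG00000022623, chr15:89499623-89560261) had 5023, 6379, 6580, 7739 and 8159 with vehicle and 8051, 8205, 9312, 9491 and 9943 with fluoxetine. The highest vehicle library passed the lowest fluoxetine library, and the difference was 0.42 ± 0.17 (SE, limma adjusted p = 0.0386). Shank2 (ENSMUSG00000037541, chr7:144001928-144424494) had 4861, 6555, 7255, 8221 and 8592 with vehicle and 8532, 8870, 9410, 9714 and 10060 with fluoxetine. Its groups met at a single pair of libraries, with a difference of 0.42 ± 0.14 (SE, limma adjusted p = 0.0187). With quantile normalization Shank1 differed by 0.31 (limma adjusted p = 0.0653) and Shank3 by 0.26 (limma adjusted p = 0.158), and none of the 3 passed.

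Ank2 (ENSMUSG00000032826, chr3:126921612-127499350) had 17572, 21691, 23439, 26568 and 26856 reads with vehicle and 27271, 28336, 29509, 29740 and 29777 with fluoxetine. The groups did not overlap, and the difference was 0.33 ± 0.10 (SE, limma adjusted p = 0.00935). The 3 other genes of the class did not pass: Ank3, which organises the axon initial segment, differed by 0.26 (limma adjusted p = 0.0623), Dip2a by 0.18 (limma adjusted p = 0.057) and Cntnap2, a juxtaparanodal adhesion gene, by 0.07 (limma adjusted p = 0.327).

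Transcription genes moved both ways. Foxp1 (ENSMUSG00000030067, chr6:98925338-99522721) had 1122, 1384, 1639, 2124 and 2180 reads with vehicle and 2372, 2492, 2543, 2556 and 2642 with fluoxetine. Every fluoxetine library was above every vehicle library, and the difference of 0.62 ± 0.20 was the largest of the 37 (SE, limma adjusted p = 0.0129). Myt1l (ENSMUSG00000061911, chr12:29528384-29923213), a repressor of non-neuronal genes, had 5862, 5982, 6798, 7989 and 8355 with vehicle and 8187, 8467, 8603, 8608 and 9232 with fluoxetine. Its groups overlapped at 1 vehicle library, with a difference of 0.31 ± 0.11 (SE, limma adjusted p = 0.0175). Tbl1xr1, a subunit of NCoR corepressor complexes, had the smallest adjusted p of the set: it ran from 1692 to 1920 with vehicle and from 2066 to 2347 with fluoxetine, without overlap, a difference of 0.29 ± 0.06 (SE, limma adjusted p = 0.000602). Med13l ran from 2513 to 3242 with vehicle and from 3524 to 3590 with fluoxetine, also without overlap, a difference of 0.23 ± 0.07 (SE, limma adjusted p = 0.0104).

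On the lower side, Bcl11a (ENSMUSG00000000861, chr11:24078056-24174123) had 2903, 2935, 3113, 3309 and 3348 reads with vehicle and 2383, 2513, 2549, 2567 and 2756 with fluoxetine. All fluoxetine libraries were below all vehicle libraries, and the gene fell by 0.29 ± 0.09 (SE, limma adjusted p = 0.0129). Auts2 (ENSMUSG00000029673, chr5:131437333-132543344) had 2081, 2182, 2472, 2648 and 2768 with vehicle and 1909, 1940, 1985, 2000 and 2071 with fluoxetine. Here too the groups did not overlap, and it fell by 0.29 ± 0.10 (SE, limma adjusted p = 0.0154). Phf21a (ENSMUSG00000058318, chr2:92093117-92364666), a reader of unmethylated histone H3 in the CoREST complex, had 1339, 1406, 1541, 1577 and 1642 with vehicle and 1183, 1208, 1240, 1244 and 1293 with fluoxetine. It fell by 0.28 ± 0.08 without overlap (SE, limma adjusted p = 0.00508). Med13 (ENSMUSG00000034297, chr11:86267033-86357602), the paralog of Med13l in Mediator, had 2579, 2652, 2706, 2898 and 2945 with vehicle and 2265, 2350, 2472, 2571 and 2609 with fluoxetine. The highest fluoxetine library lay above the lowest vehicle library, and Med13 fell by 0.17 ± 0.07 (SE, limma adjusted p = 0.0357). These 2 paralogs thus differed in direction with the main scaling, but Med13l was not called higher with quantile normalization. Pogz, a zinc-finger protein of heterochromatin, and Tcf4, a basic helix-loop-helix factor, did not pass, at -0.18 and -0.04 (limma adjusted p = 0.0579 and 0.416).

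Among chromatin genes, Ehmt1 (ENSMUSG00000036893, chr2:24789928-24919614), a histone H3 lysine methyltransferase gene, had 1200, 1227, 1349, 1354 and 1359 reads with vehicle and 997, 1083, 1094, 1097 and 1130 with fluoxetine. The groups did not overlap, and it fell by 0.26 ± 0.09 (SE, limma adjusted p = 0.0223). Kmt5b (ENSMUSG00000045098, chr19:3767421-3818303), a histone H4 methyltransferase gene, had 1644, 1690, 1824, 1919 and 1919 with vehicle and 1501, 1528, 1539, 1618 and 1718 with fluoxetine. The highest fluoxetine library reached into the vehicle range, and Kmt5b fell by 0.19 ± 0.07 (SE, limma adjusted p = 0.0387). Chd3 ran from 27145 to 29284 with vehicle and from 24188 to 26085 with fluoxetine, without overlap, and fell by 0.14 ± 0.05 (SE, limma adjusted p = 0.0171). Nsd1, a histone H3 lysine methyltransferase gene, fell by 0.09 ± 0.03 (SE, limma adjusted p = 0.0223). Chd8, a remodeler gene often hit in autism, differed by -0.03 and Arid1b, a BAF subunit gene, by 0.004, neither past the test (limma adjusted p = 0.584 and 0.959).

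Of the signalling genes, Tsc1, a brake on mTOR, ran from 2188 to 2505 reads with vehicle and from 2603 to 2752 with fluoxetine. The groups did not overlap and the difference was 0.18 ± 0.05 (SE, limma adjusted p = 0.00439). Its partner gene Tsc2 differed by 0.01 (limma adjusted p = 0.84). Cul3 ran from 3152 to 3485 with vehicle and from 3455 to 3738 with fluoxetine, with a difference of 0.11 ± 0.04 (SE, limma adjusted p = 0.0349). Dyrk1a, Trip12 (a ubiquitin ligase gene) and Tnrc6b (a partner of Argonaute) each differed by 0.01, and Nf1, a RAS GTPase activator gene, by 0.13 (limma adjusted p = 0.0947). In all, 11 of the 37 genes had groups that did not overlap, 6 above and 5 below, where 29.2% of all genes did not overlap.

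**Figure D3:**
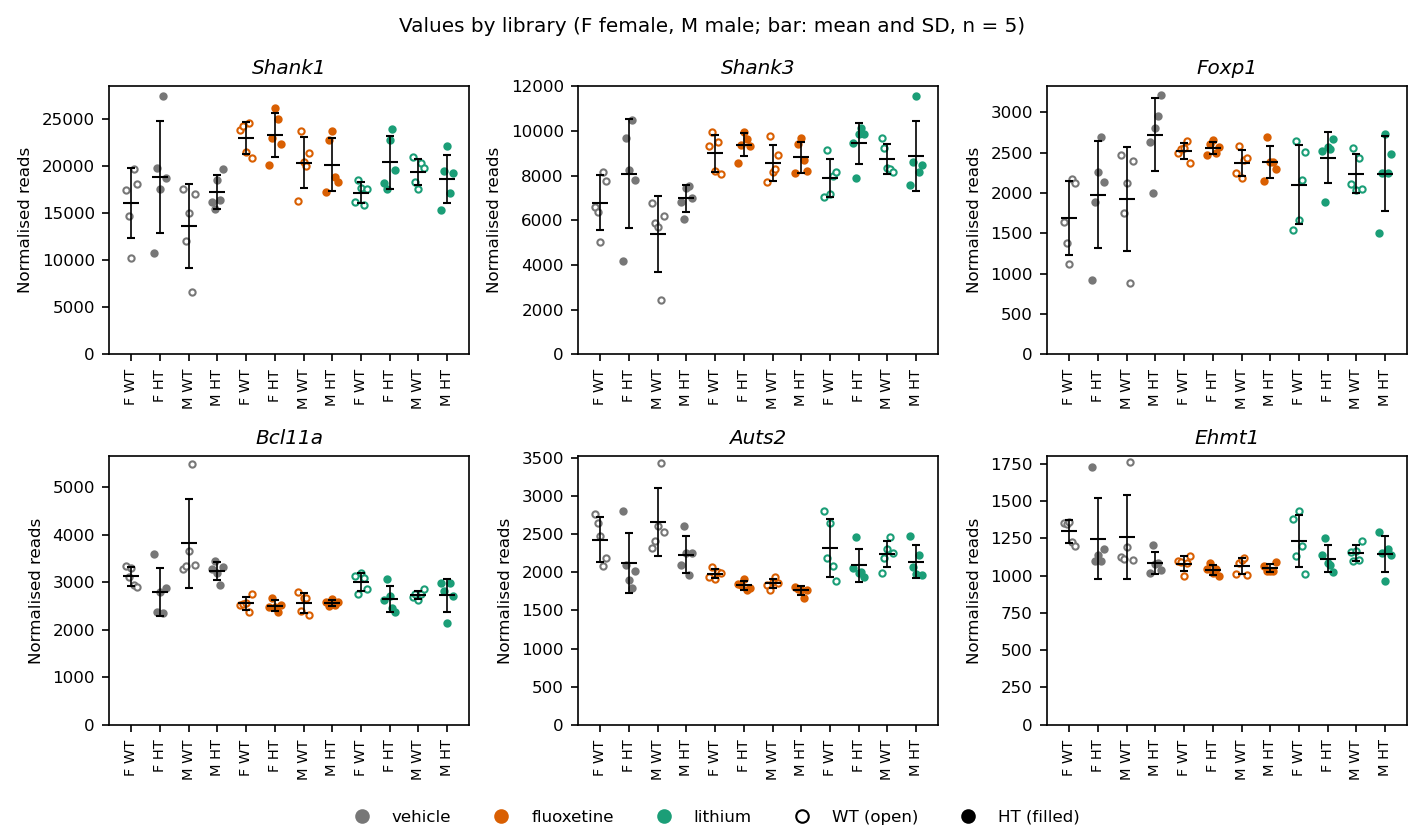
Normalised reads of 6 genes in each of the 60 libraries, by sex, genotype (open WT, filled HT) and treatment (grey vehicle, orange fluoxetine, green lithium), with the mean and SD of each group of 5. Shank1, Shank3 and Foxp1 are spread widely with vehicle (Foxp1 from 885 to 3211) and narrowly with fluoxetine, and Bcl11a, Auts2 and Ehmt1 have their highest libraries among vehicle mice.

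The count of 18 varied with single libraries: 7 members were called without WT vehicle female 3 (24.2% of all genes), 10 without WT vehicle female 2 (30.4%) and 11 without WT vehicle female 1 (33.1%), and 14 to 23 without each of the other 7 libraries of the 2 groups (34.2% to 44.4%). Of the 12 genes given above with every library, Bcl11a and Phf21a passed in all 10 such fits. Without WT vehicle female 3, Foxp1 (0.48), Shank1 (0.40), Shank2 (0.29), Ank2 (0.24), Shank3, Myt1l, Ehmt1, Kmt5b and Med13 no longer passed, with limma adjusted p of 0.0578 to 0.155. Without WT vehicle female 2 the calls of Shank3, Myt1l, Auts2, Ehmt1, Kmt5b and Med13 were lost (limma adjusted p of 0.0503 to 0.102), and without WT vehicle female 1 those of Shank3, Auts2, Ehmt1, Kmt5b and Med13 (0.0502 to 0.0987). Leaving out WT fluoxetine female 1, 2 or 4 lost Shank3 and Kmt5b, leaving out 1 or 4 lost Med13, and leaving out 3 lost Ehmt1 (limma adjusted p of 0.0596 to 0.105).

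These differences moved with olfactory bulb markers. All 7 of 7 bulb markers were lower in WT fluoxetine females, with log2 differences from -5.83 to -4.12, and none was at 0 in any female library. Their summed level was 6287 to 22899 with vehicle and 244 to 2058 with fluoxetine, so the 2 groups did not overlap, and bulb content and treatment cannot be told apart in WT females. All 7 of 7 immature neuron markers were also lower, and 6 of 11 cortical excitatory neuron markers were higher and 1 lower. Mean log2 levels of 3 further lists did not overlap between the groups: choroid plexus markers at 5.30 to 5.71 with fluoxetine against 6.17 to 7.13 with vehicle, meninges markers at 8.51 to 8.82 against 9.03 to 9.70, and astrocyte markers at 12.80 to 12.85 against 12.93 to 13.14. Summed choroid plexus markers went the other way, at 6365 to 7771 with fluoxetine against 3294 to 5880 with vehicle. Summed astrocyte markers did too, at 121400 to 141260 against 84570 to 116240. Markers within each of these lists thus did not move together. Summed meninges markers were lower with fluoxetine, at 5072 to 6346 against 6895 to 12212. In a fit with the bulb markers as 2 covariates, 0 of the 37 genes and 0 of all genes passed for fluoxetine in WT females (0 members and 990 genes at an unadjusted p below 0.05), and with striatum and choroid plexus markers as covariates 0 of the 37 and 122 of all genes passed. With the bulb covariates the median of the 10 higher genes went from 0.32 to 0.08, with 9 of 10 still above 0, and that of the 8 lower genes from -0.22 to -0.04, with 6 of 8 still below 0. The intervals then widened, for Shank3 from -0.36 to 0.36.

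**Figure D4:**
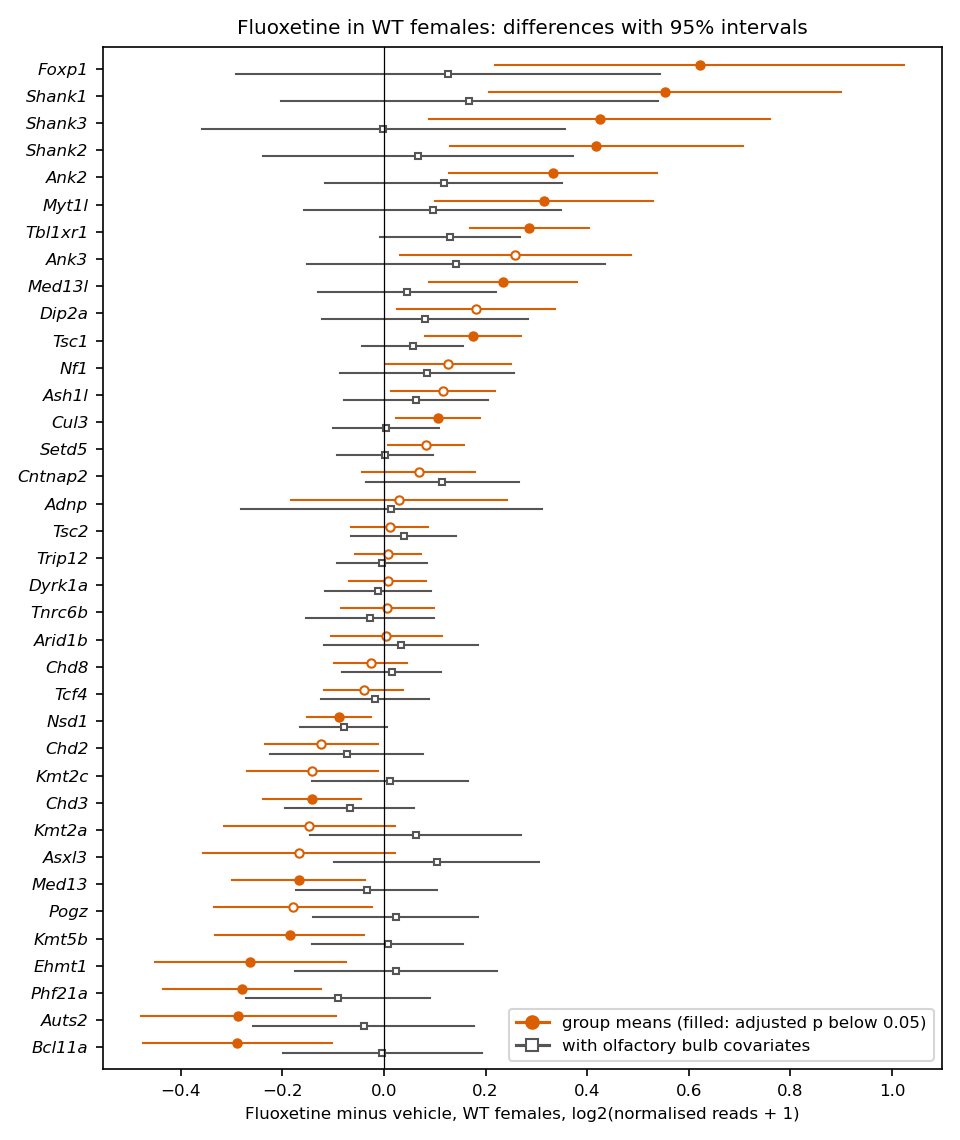
Difference of fluoxetine from vehicle in WT females for the 37 genes, with 95% intervals, from group means (orange circles, filled where the limma adjusted p was below 0.05) and from the fit with olfactory bulb covariates (grey squares). The 18 filled circles lie off 0 on both sides, and with the covariates every interval of the 37 genes includes 0.

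Within groups, where treatment, genotype and sex are held fixed, the levels of many of these genes also followed the bulb markers. The slope on the bulb marker mean passed for 23 of the 37 genes (62.2%), 10 rising and 13 falling, where 54.8% of all genes passed (26.1% rising and 28.7% falling), and quantile normalization gave 19 rising and 8 falling (54.0% of all genes). Library quality weights called 22 members and 45.8% of all genes. Rising with bulb markers were Bcl11a and Ehmt1, each by 0.06 per log2 unit of the marker mean, and Kmt5b by 0.05, which had the smallest adjusted p (limma, 8.46e-07). Falling with them were Foxp1 at -0.13, Shank3 and Shank1 at -0.11, Shank2 at -0.09 and Ank2 and Myt1l at -0.06, each with a limma adjusted p of 0.000284 or less. With the main scaling, all 10 genes that were higher with fluoxetine in WT females had a falling slope that passed. So had 87.8% of all 3710 genes that were higher. Of the 8 lower genes, 6 had a rising slope that passed, where 83.3% of all 3374 lower genes had, and Chd3 and Nsd1 did not pass. With this scaling the members thus followed the relation seen over all genes. It depends on the scaling, as only 8 of the 37 had a falling slope that passed with quantile normalization.

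Single libraries at the ends of the marker range are an example. The vehicle male with the highest bulb marker mean of all 60 libraries (WT vehicle male 4, 11.063) had the lowest Shank3 (2441) and Foxp1 (885) and the highest Bcl11a (5480) and Ehmt1 (1759). The lithium male with the lowest bulb mean (HT lithium male 3, 3.27) had the highest Shank3 (11552) and the lowest Bcl11a (2138) and Ehmt1 (964) of all. The Foxp1 value of that male (2729) was below the 3211 of HT vehicle male 5. HT vehicle female 4, at a bulb mean of 5.13, which lies inside the range of the fluoxetine females, had 10478 reads of Shank3, 2691 of Foxp1, 2357 of Bcl11a and 1096 of Ehmt1, with vehicle. Its Shank3 and Foxp1 were above, its Bcl11a below and its Ehmt1 within the values of the 10 fluoxetine females. Not every library followed the markers. HT vehicle female 2, at a bulb mean of 9.28, had 9702 reads of Shank3, 1884 of Foxp1, 2375 of Bcl11a and 1101 of Ehmt1. In that library Shank3 and Ehmt1 lay within, Bcl11a just below and Foxp1 below the values of the fluoxetine females.

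**Figure D5:**
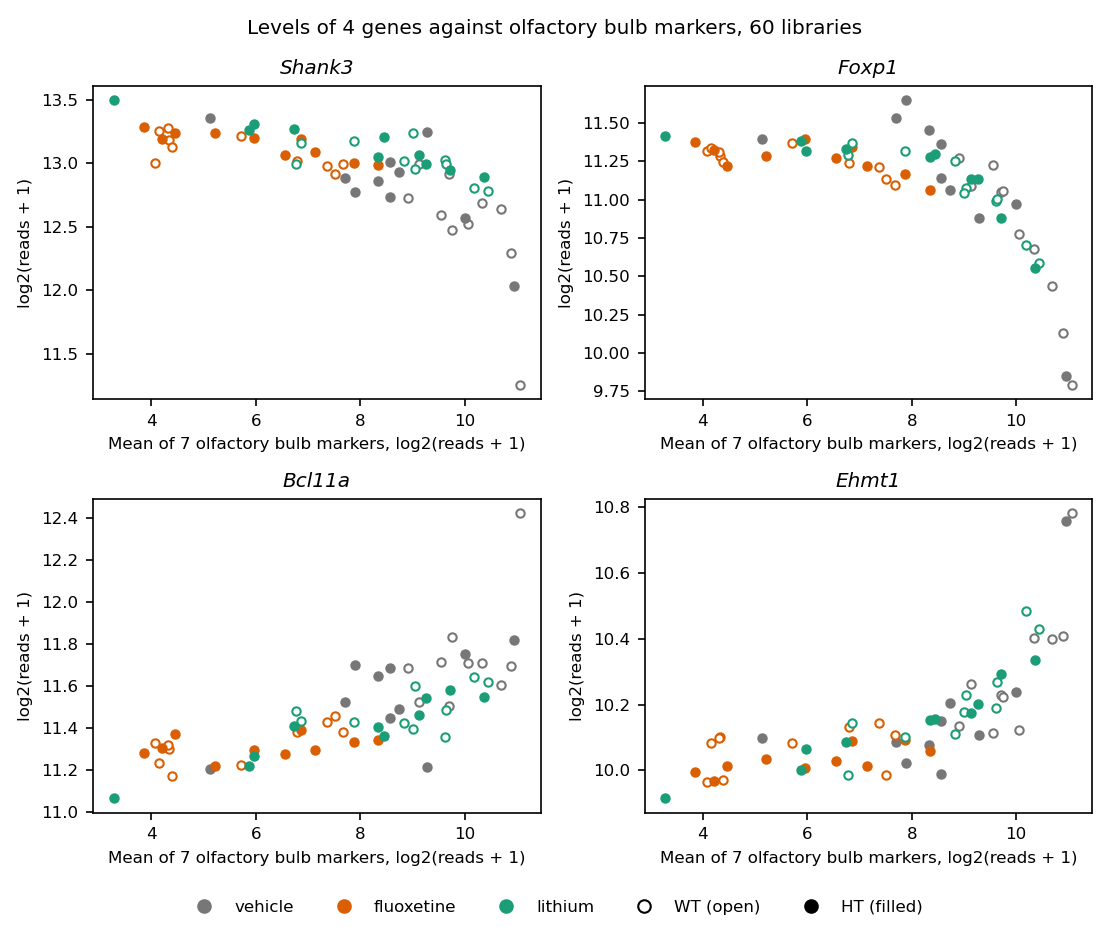
Level of Shank3, Foxp1, Bcl11a and Ehmt1 as log2(reads + 1) against the mean log2 level of 7 olfactory bulb markers, with 1 point per library, colours for treatment, and open (WT) or filled (HT) points. Shank3 and Foxp1 fall and Bcl11a and Ehmt1 rise toward the right, and the library at 11.063 has the lowest Shank3 and the highest Bcl11a.

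In HT females fluoxetine moved no gene past the test: 0 of the 37 and 0 of all 17781 genes passed (percent passing 0.0%), with 9 members and 4063 genes at an unadjusted p below 0.05. For these members edgeR and DESeq2 called 0, and DESeq2 called 388 genes (2.23%). Library quality weights called Tsc1 alone of the 37 (2.93% of all genes). Tsc1, Ehmt1 and Phf21a had the smallest p. Tsc1 had 2127, 2347, 2349, 2431 and 2612 reads with vehicle and 2583, 2600, 2651, 2654 and 2672 with fluoxetine, overlapping through 1 vehicle library (0.15 ± 0.05 SE, limma adjusted p = 0.147), and it passed without HT vehicle female 4 (limma adjusted p = 0.0291). Ehmt1 had 1096, 1101, 1136, 1180 and 1731 with vehicle and 1000, 1020, 1042, 1047 and 1088 with fluoxetine. It was the 1 member whose groups did not overlap, where 3.5% of all genes did not, and its difference was -0.24 ± 0.09 (SE, limma adjusted p = 0.171). Phf21a had 1212, 1267, 1276, 1368 and 1853 with vehicle and 1142, 1199, 1232, 1247 and 1277 with fluoxetine, overlapping, with a difference of -0.18 ± 0.08 (SE, limma adjusted p = 0.191). Leaving out 1 library at a time gave differences of -0.28 to -0.12 for Ehmt1 and -0.22 to -0.07 for Phf21a, without a call.

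The 18 genes that passed in WT females had the same sign in HT females, with a median of 0.22 for the 10 higher and -0.13 for the 8 lower genes. This agreement was not set against that of all genes that passed in WT females. In HT females the bulb marker mean was also lower, at 5.34 with fluoxetine against 8.53 with vehicle, and its part in the shared sign was not tested. The difference between the genotypes in the fluoxetine response was tested directly. 0 of the 37 and 0 of all genes passed (0.0%), with 0 members and 508 genes at an unadjusted p below 0.05, and edgeR called 0 and DESeq2 0 of the 37. With library quality weights 4 of the 37 passed (Kmt5b, Auts2, Tbl1xr1 and Phf21a), as did 15.5% of all genes. The intervals were wide, down to -0.74 for Foxp1, so the data do not show that WT and HT females responded alike. Tbl1xr1 (-0.16 ± 0.08), Med13l (-0.14 ± 0.10) and Chd3 (0.08 ± 0.07) had the smallest p (SE, limma adjusted p = 0.906 each). Bulb marker means overlapped in HT females, at values of 5.13 to 10.95 with vehicle and 3.85 to 6.86 with fluoxetine, and their part in the difference between genotypes was not tested beyond the covariate fit, which called 0.

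Lithium moved none of the 37 genes past the test in females of either genotype. In WT females 0.00562% of all genes passed, and Dyrk1a was the 1 member at an unadjusted p below 0.05, as were 2012 of all genes. With library quality weights 4 of the 37 passed (Kmt2a, Foxp1, Auts2 and Phf21a), as did 18.5% of all genes. Dyrk1a had 2328, 2366, 2369, 2394 and 2463 reads with vehicle and 2182, 2190, 2273, 2290 and 2338 with lithium, overlapping at 1 library, with a difference of -0.08 ± 0.04 (SE, limma adjusted p = 0.431). Shank2 (4861 to 8592 with vehicle, 7601 to 9264 with lithium) and Cul3 (3152 to 3485 and 3260 to 3694) came next, at 0.26 ± 0.14 and 0.07 ± 0.04 (SE, limma adjusted p = 0.454 and 0.475), both with overlapping groups. In HT females 0.0169% of all genes passed, and 2 members and 1690 genes had an unadjusted p below 0.05. Chd2 had 1686, 1716, 1805, 1862 and 2037 with vehicle and 1861, 1936, 1938, 2093 and 2191 with lithium (0.14 ± 0.06 SE, limma adjusted p = 0.525). Tsc1 had 2322 to 2761 with lithium against 2127 to 2612 with vehicle (0.11 ± 0.05 SE), and Asxl3 had 438 to 671 against 509 to 690 (-0.18 ± 0.09 SE), each with overlap.

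In neither genotype did the lithium and vehicle groups separate for any of the 37 genes, where 1.33% of all genes did so in WT and 0.517% in HT females, and edgeR and DESeq2 called 0 members in both. The lithium response did not differ detectably between genotypes: 0 of the 37 and 0 of all genes passed (0.0%), with 0 members and 380 genes at an unadjusted p below 0.05, and edgeR and DESeq2 called 0. The bounds for Foxp1, the least precise member, ran from -0.52 to 0.62. Striatum markers were high in WT lithium female 2 (mean log2 10.84) and HT lithium female 1 (10.69). The other lithium females were at 8.60 to 8.83 in WT and 8.54 to 9.14 in HT. Vehicle females were at most at 8.75 in WT and 9.49 in HT. Bulb marker means were lower with lithium, at 8.66 against 10.15 in WT and 7.35 against 8.53 in HT females, with overlapping ranges. The part of these tissues in the lithium values was not tested beyond the covariate fits, which called 0 members.

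The members work in complexes, and 168 partner genes in 11 lists were read in the same fits. In WT females with fluoxetine 45 partners were higher and 47 lower, 54.8% of the lists against 39.8% of all genes. Postsynaptic scaffold genes beside the Shank genes had 11 higher and 2 lower of 17, with Arhgap32, a RhoGAP at the postsynaptic density, at 0.75 and Homer3 at -0.96, and 5 higher and 3 lower with quantile normalization. Ankyrin and spectrin partners had 7 higher and 2 lower of 12, with Nrcam at 0.34 and Ank1 at -0.30, but 2 and 3 with quantile normalization. BAF complex partners of Arid1b had 4 higher and 12 lower of 21, with Dpf3, a neuronal subunit gene, at -1.12 and Bcl7a at 0.27, and 3 and 13 with quantile normalization. NuRD and ChAHP partners had 3 higher and 7 lower of 16 (Mta2 at -0.34, Rbbp7 at 0.25), COMPASS partners 0 and 4 of 15 (Ash2l at -0.22), and CoREST and NCoR partners 2 and 5 of 11 (Hmg20b at -0.37).

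Mediator partners had 5 higher and 3 lower of 19 (Med14 at 0.32), RAS regulators 7 and 4 of 17 (Rasal2 at 0.64), TSC-mTOR partners 3 and 3 of 16 (Deptor, an mTOR inhibitor, at -0.45), miRNA silencing partners of Tnrc6b 0 and 4 of 11 (Ago4 at -0.37) and cullin-RING partners 3 and 1 of 13 (Kctd13, a substrate adaptor of CUL3, at 0.44). With quantile normalization RAS regulators turned to 3 higher and 7 lower, TSC-mTOR partners to 3 and 4 and cullin-RING partners to 2 and 2, while miRNA silencing partners had 0 and 8 and Mediator partners 6 and 2. Bulb markers were lower in the same comparison, and their part in the partner values was not tested. With bulb covariates in the fit 0 of the 168 partners passed. As 0 of all 17781 genes passed in that fit, the count says nothing particular about the partners. Between HT and WT mice averaged over treatments 3 of the 168 partners passed, or 1.79% against 1.21% of all genes: Homer1, a partner of SHANK proteins, at 0.26 ± 0.05 (SE, limma adjusted p = 0.00712), Spred1, a RAS inhibitor that binds neurofibromin, at 0.14 ± 0.03 (SE, limma adjusted p = 0.00834), and Smarcd2, a BAF subunit gene, at -0.13 ± 0.03 (SE, limma adjusted p = 0.0487). In the other 8 comparisons of genotype or drug, 0 of the 168 passed in limma.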

How the data were processed

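RNA of mouse prefrontal cortex was sequenced after stranded mRNA library preparation, per the labels' protocols. The submitters' processing notes name Salmon 0.11.2, DESeq2 1.19.11, R 3.6.0 and the GRCm38 build, without settings. The deposited signal values are reads per gene divided by a size factor of each library (0.818 to 1.33). Whole reads could be recovered for 100% of values (tolerance 1e-06). Because the deposited values were normalised, limma 3.58.1 in R 4.3.3 was the main test, on log2(value + 1) with 12 group means, over all 60 libraries and 17781 genes (10 or more in at least 5 libraries), Benjamini-Hochberg adjusted, two-sided, with a threshold of 0.05. Reported differences are on this log2 scale, which understates changes of low genes. Sexes were weighted equally in comparisons of genotype, and drugs were compared in females.

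Alternatives included DESeq2 1.42.0 and edgeR 4.0.16, both run on whole reads (edgeR called 7236 genes for fluoxetine in WT females), pseudocounts of 0.5 and 5, no filter and a stricter one (mean of 100 or more), quantile normalization, library quality weights, a replicate block, marker covariates, the compared groups alone, each sex alone and leaving out each library. Symbols matched 18077 of 18088 identifiers, exon lengths and coordinates came from GENCODE for GRCm38, and promoters from RefSeq.

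The genes named with values are, by the rule used, members with the smallest p in each comparison, at most 6 on each side where genes passed ordered by size of the difference, plus members described by class. The members and lists were chosen with earlier results of these data known.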

Additional observations from a re-analysis of the deposited data

Results flagged for a closer look

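In 5 of the 72 groups of 5 libraries examined for the genes given with every library, the highest or lowest library lay apart from the rest by more than 0.71 of the range of its group, and chance alone marks about 5% of groups. WT vehicle male 4 accounted for 3 of them: Auts2 at 3431 normalised reads (next 2605), Bcl11a at 5480 (next 3648) and Shank3 at 2441 (next 5683). HT vehicle female 1 accounted for the other two: Ehmt1 at 1731 (next 1180) and Phf21a at 1853 (next 1368). These were the libraries with the highest olfactory bulb marker means of all 60, 11.063 and 10.948, and the part of bulb tissue in the values was not tested.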

How the results depend on the processing

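No member passed for HT against WT mice under fluoxetine or lithium, for lithium in HT females or for the genotype by lithium term in any alternative run. For the other comparisons, library quality weights called 20 members for genotype with vehicle (39.3% of all genes), 12 averaged over treatments (24.1%), 1 for fluoxetine in HT females (2.93%), 4 for lithium in WT females (18.5%) and 4 for the genotype by fluoxetine term (15.5%). DESeq2 called 5 for genotype with vehicle and 1 averaged over treatments, where the stricter filter and the striatum and choroid plexus covariates also called 1. For fluoxetine in WT females 0 were called with bulb covariates, 0 with striatum and choroid plexus covariates and 0 with all of these, a fit added after seeing the data, as was the fit without vehicle males, which called 18. Bulb covariates turned Shank3 to -0.0011, Ehmt1 to 0.023 and Kmt5b to 0.0070; all covariates turned Auts2 to 0.0096, Ehmt1 to 0.0078 and Kmt5b to 0.033. The cause was not tested. Leaving out each library gave 0 to 14 members for genotype with vehicle, 0 to 11 averaged, 7 to 23 for fluoxetine in WT females, 0 to 1 in HT females and 21 to 24 for the slope. For single genes, 1933 alternative values held direction and side of the threshold, 65 lost and 45 gained a call, and 6 turned. Replicate numbers did not pair samples: same-numbered libraries correlated at a median of 0.0052 in their deviations (68 of 330 pairs above 0.1) against -0.0031 for different numbers. A replicate block left 18 members for fluoxetine in WT females, 23 for the slope and 0 elsewhere. Fits of the compared groups alone do not apply to genotype averaged over treatments, which uses all groups. At these depths reads per gene were high, and the spread between libraries limits precision.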
